A study of Sus scrofa with 8 samples.

Results

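The interferon-stimulated genes described here are MX1, MX2, ISG15, OAS1, IFIT1, IRF1 and RSAD2, 7 of the 6765 genes that the platform annotation names on a porcine Affymetrix array. They were taken by gene symbol, and they are read by 10 of the 23999 probe sets in the table. A gene with more than 1 probe set is led here by the one with the highest mean over the 8 arrays. The RNA was extracted from the biceps femoris muscle of female domestic piglets in a model of acute quadriplegic myopathy, the limb weakness that can follow intensive care. The 4 control arrays are labelled as sedation and mechanical ventilation, and the 4 corticosteroid arrays as corticosteroid treatment, both at day 5.

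What both groups share, per the protocol text, is isoflurane sedation at 0.8 to 1.3% with morphine and ketamine as needed, ventilation through a tracheotomy, intravenous fluid and glucose, streptomycin and benzylpenicillin. The corticosteroid text adds bolus doses of hydrocortisone. The control text adds Escherichia coli endotoxin, infused at 36 µg/kg/h for 1 h, although the control source label speaks of sedation and ventilation alone. The series text also names pancuronium bromide, a neuromuscular blocker, without saying which animals had it. Mean body weight was 25.5 kg in the text on controls (4 piglets) and 26.4 kg in the text on corticosteroid samples (8 piglets). Hydrocortisone, endotoxin as the control text gives it, and any difference in handling between the groups cannot be told apart. Neither strain nor age of the piglets is given in the sources used here. Whether the 4 arrays of a group stand for 4 animals is not said in the labels, and p-values cover only the variation among the arrays, part of which may be technical.

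Interferons are secreted signals that bind cell-surface receptors and act through JAK kinases and STAT transcription factors. Type I interferons act through a transcription factor complex that includes IRF9 and switches on antiviral genes in nearly every cell type, muscle fibres included. Interferon-gamma has its own receptor and favours genes of antigen presentation. Endotoxin can induce interferon through TLR4, and glucocorticoids are known to dampen parts of this response.

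The antiviral members were high on 1 control array and 1 corticosteroid array, and no difference between the groups passed the test. On control replicate 1 and corticosteroid replicate 3, 6 of the 7 genes had their 2 highest levels of the 8 arrays, the exception being IRF1. This was so for 2.44% of the 5406 genes tested. The mean of the 7 genes, each centred on its own mean, was 1.18 on control replicate 1 and 1.23 on corticosteroid replicate 3 (log2), and lay between -0.59 and -0.03 on the other 6 arrays. These 2 arrays were singled out after their values were seen. Levels of different genes are not compared here, because probe sets differ in brightness.

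**Figure D1:**
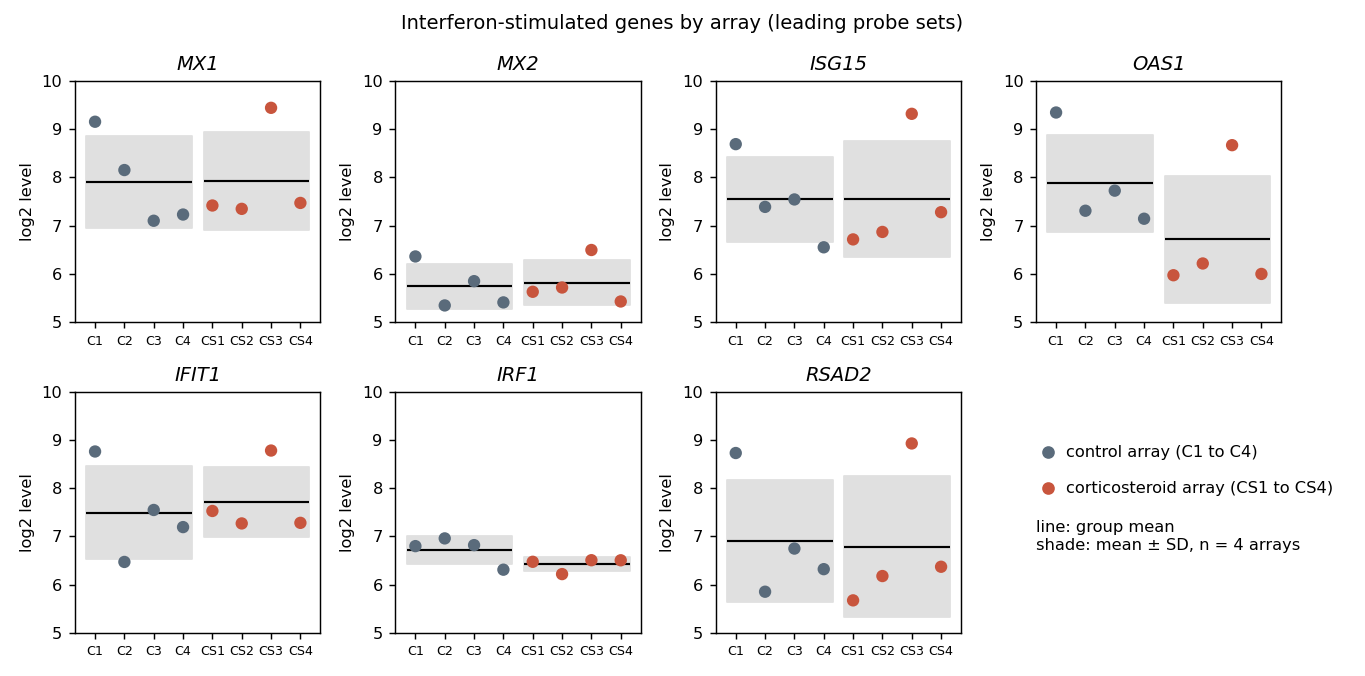
Level of the leading probe set of each member (log2, y axis) on the 4 control arrays (C1 to C4) and the 4 corticosteroid arrays (CS1 to CS4), with the group mean as a line and mean ± SD (n = 4) shaded. C1 and CS3 are the 2 highest arrays for MX1, MX2, ISG15, OAS1, IFIT1 and RSAD2, and not for IRF1.

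MX1 and MX2 encode dynamin-like GTPases that block the replication of RNA viruses. MX1 (gene ID 397128) stood at 9.16, 8.15, 7.10 and 7.23 on control replicates 1 to 4 and at 7.42, 7.35, 9.44 and 7.47 on corticosteroid replicates 1 to 4 (log2). The highest level was 5.07-fold above the lowest on the linear scale, while the groups overlapped and had nearly equal means, 7.91 ± 0.95 and 7.92 ± 1.02 (SD, n = 4 each). MX2 (gene ID 396893) stood at 6.36, 5.35, 5.85 and 5.41 in controls and at 5.63, 5.72, 6.50 and 5.43 with corticosteroid. Its spread was smaller, 2.22-fold from lowest to highest, with the same 2 arrays on top and overlapping groups. The group differences, corticosteroid minus control, were 0.01 (SE 0.57) for MX1 and 0.08 (SE 0.29) for MX2, with limma adjusted p-values of 0.996 and 0.942 and exact two-sided permutation p-values of 1 and 0.771. Neither difference exceeded the spread among arrays. The second MX2 probe set had a mean of 3.67, below the level of 5.27 that a probe set had to exceed to be tested. It stood at 3.89 on control replicate 1, at 3.95 on corticosteroid replicate 3 and between 3.47 and 3.71 elsewhere.

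OAS1 encodes an oligoadenylate synthetase that senses double-stranded RNA and activates RNase L. Its levels (gene ID 397570) were 9.35, 7.31, 7.73 and 7.14 on the control arrays and 5.97, 6.22, 8.67 and 5.999 on the corticosteroid arrays. The groups overlapped through corticosteroid replicate 3 only, since the other 3 corticosteroid arrays lay below every control. The difference was -1.17 (SE 0.67, 95% interval -2.67 to 0.33), with an adjusted p of 0.578 in limma over all probe sets tested and an exact two-sided permutation p of 0.229. Without corticosteroid replicate 3 it was -1.82 (SE 0.48, limma adjusted p = 0.684), and without control replicate 1 it was -0.68 (SE 0.63, limma adjusted p = 0.657). With both of these arrays left out, a choice made after the values were seen, it was -1.33 (SE 0.21), with an unadjusted limma p of 0.000357 and an adjusted p of 0.531. In that fit 4.53% of probe sets had a lower mean with corticosteroid at an unadjusted p under 0.05.

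IFIT1 encodes a protein that binds foreign RNA and blocks its translation. Its leading probe set (gene ID 100153038) stood at 8.76, 6.47, 7.55 and 7.19 in controls and at 7.53, 7.27, 8.78 and 7.28 with corticosteroid. Control replicate 1 and corticosteroid replicate 3 were level with each other and more than 1 log2 unit above the other arrays. A second probe set stood at 7.22, 4.65, 6.12 and 5.10 in controls and at 4.89, 5.44, 6.75 and 4.70 with corticosteroid, again highest on these 2 arrays. The third had a mean of 4.63, below the filter, and was highest on control replicate 1 (5.02) and control replicate 3 (4.87). The 3 probe sets differed in the sign of the group difference, at 0.22 (SE 0.50), -0.33 (SE 0.59) and -0.27 (SE 0.14), and none passed the test. The third value comes from a fit of all probe sets without the filter.

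RSAD2 encodes viperin, a radical SAM enzyme that interferes with viral RNA synthesis and budding. Levels (gene ID 396752) were 8.73, 5.85, 6.75 and 6.32 in controls and 5.67, 6.18, 8.93 and 6.37 with corticosteroid. The 2 high arrays stood 2 log2 units or nearly so above the rest, and the highest array was 9.54-fold above the lowest. ISG15 encodes a ubiquitin-like protein that is attached to other proteins during the antiviral response. Its levels (gene ID 100145895) were 8.69, 7.39, 7.54 and 6.55 in controls and 6.72, 6.87, 9.32 and 7.28 with corticosteroid. ISG15 thus had group means of 7.54 ± 0.88 and 7.55 ± 1.21 (SD, n = 4 each), with overlapping groups. RSAD2 differed by -0.13 (SE 0.78, limma adjusted p = 0.967) and ISG15 by 0.00 (SE 0.61, limma adjusted p = 0.999), both within the spread among arrays.

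IRF1 encodes a transcription factor that responds chiefly to interferon-gamma and also to inflammatory signals. It stood at 6.80, 6.96, 6.82 and 6.31 in controls and at 6.47, 6.22, 6.51 and 6.50 with corticosteroid (gene ID 396611). The arrays on which the other members were high were not set apart, and control replicate 2 was highest. The groups overlapped through control replicate 4, and the difference was -0.30 (SE 0.17, limma adjusted p = 0.586, exact two-sided permutation p = 0.114).

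Of the 7 genes, 0 passed at an adjusted p under 0.05 in limma and 0 had an unadjusted p under 0.05, against 0.0% and 9.49% of the 14361 probe sets tested. The groups overlapped for each of the 7, and did not for 5.56% of probe sets. All 7 leading probe sets were above the filter, as were 8 of the 10 probe sets in all. The mean was higher with corticosteroid for 4 genes and lower for 3, and the median difference was 0.00 (log2), beside 0.02 over all probe sets tested. The 95% interval was -1.27 to 1.29 for MX1, -0.56 to 0.72 for MX2, -1.36 to 1.37 for ISG15, -0.89 to 1.33 for IFIT1 and -1.87 to 1.62 for RSAD2. For MX1, ISG15 and RSAD2 the interval thus holds changes of 1 log2 unit in either direction. Without corticosteroid replicate 3 all 7 differences were below 0, with a median of -0.50, and without control replicate 1 the median was 0.38.

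**Figure D2:**
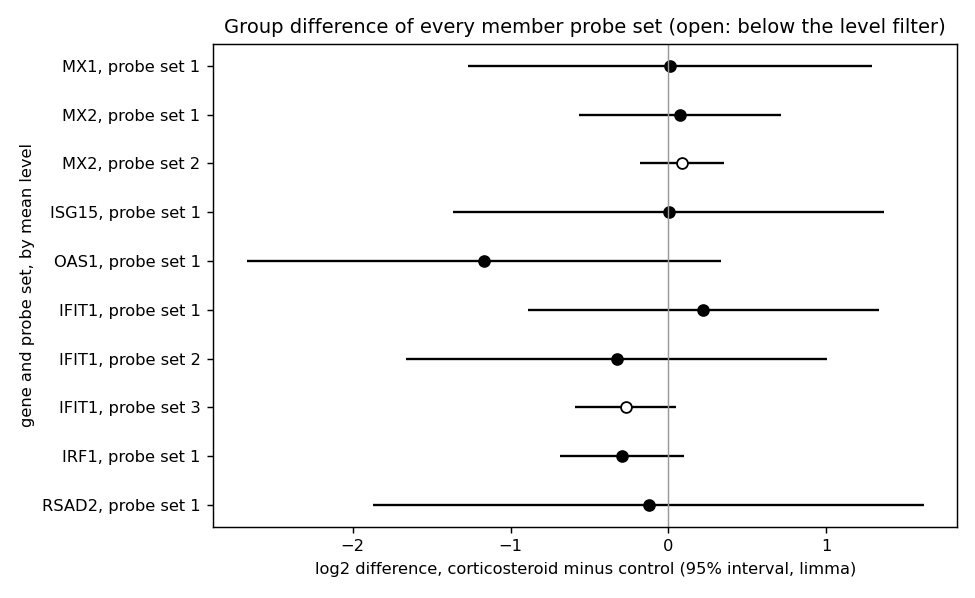
Log2 difference between groups (x axis, corticosteroid minus control) with its 95% interval from limma for each of the 10 probe sets (y axis, ordered within a gene by mean level), open circles marking the 2 below the level filter. Every interval includes 0, and OAS1 has the difference farthest from it, at -1.17.

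The spread among arrays of one group was large for most members. The within-group SD was 1.36 for RSAD2, larger than that of 99.4% of the genes tested, 1.17 for OAS1 (98.6%), 1.06 for ISG15 (97.7%), 0.99 for MX1 (97.1%) and 0.85 for IFIT1 (95.2%). It was 0.47 for MX2 (76.2%) and 0.22 for IRF1 (25.4%). The median over all probe sets tested was 0.31. The 2 high arrays, 1 in each group, enter these values. With both left out, the SE of the group difference went from 0.78 to 0.29 for RSAD2 and from 0.67 to 0.21 for OAS1. For MX1 it went from 0.57 to 0.30, while for IRF1 it rose from 0.17 to 0.22.

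Whether the members rose on the same arrays was tested for the 21 pairs of genes. The 15 pairs without IRF1 had Pearson r between 0.71 and 0.95 across the 8 arrays, with a median of 0.85. The 6 pairs with IRF1 had r between -0.01 and 0.49, with a median of 0.25. Over the 14609715 pairs of tested genes the median r was 0.00, and 5.46% of those pairs had r above 0.7. After Benjamini-Hochberg adjustment over the 21 pairs, 11 of the 15 passed at 0.05 and 0 of the 6 did, by exact permutation of the arrays. The pairs share the same 8 arrays, so the 11 calls are not separate from each other.

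MX2 and IFIT1 had the strongest relation, with r = 0.95 (exact two-sided permutation p = 0.000694, adjusted p = 0.0146) and Spearman rho = 0.93 (exact p = 0.00223, adjusted p = 0.0469). This was the single pair that passed by rank. ISG15 and RSAD2 had r = 0.93 (exact p = 0.00595, adjusted p = 0.029) and rho = 0.76 (exact p = 0.0368, adjusted p = 0.16). OAS1 and IFIT1 had the weakest relation outside IRF1, with r = 0.71 (exact p = 0.05, adjusted p = 0.07) and rho = 0.50 (exact p = 0.216, adjusted p = 0.349). MX1 and OAS1, the member with the largest group difference, had r = 0.78 (exact p = 0.0231, adjusted p = 0.0486) and rho = 0.40 (exact p = 0.327, adjusted p = 0.49). Of the pairs with IRF1, IRF1 and OAS1 had r = 0.49 (exact p = 0.217, adjusted p = 0.285) and rho = 0.60 (exact p = 0.132, adjusted p = 0.253).

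With each group centred on its own mean, so that no difference between groups enters, the 15 pairs had r between 0.73 and 0.98 and a median of 0.91. OAS1 and RSAD2 then had r = 0.98. By permutation within groups, 6 of the 15 pairs passed after adjustment over the 21 (exact adjusted p = 0.0425 for each), and 0 of the 6 pairs with IRF1.

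With both high arrays left out the relation no longer held, so it rests on those 2 arrays together. In every pair but IRF1 with RSAD2, control replicate 1 and corticosteroid replicate 3 were the arrays farthest from the median of the first gene, and for that pair r without its own farthest arrays was 0.66, from 0.17. Over the other 6 arrays the 15 pairs without IRF1 had a median r of 0.16 and a range from -0.90 to 0.72, and 0 of the 21 pairs passed after adjustment (exact permutation). MX2 and IFIT1 had r = 0.72 there, while MX1 and IFIT1 had r = -0.90. On these 6 arrays 2 of the 21 member pairs had r above 0.7, as did 9.68% of all pairs of tested genes. With only 1 of the 2 high arrays left out, the median r over the 21 pairs went from 0.78 to 0.69 without control replicate 1. Without corticosteroid replicate 3 it was 0.73. The other high array remained in each case, so these values do not show shared variation on the remaining arrays. The number of pairs that passed went from 11 to 0 in both cases. It was 2 without control replicate 3, 3 without corticosteroid replicate 1, and 7 without control replicate 4 or without corticosteroid replicate 2. Within a group there are only 4 arrays, too few for a correlation.

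**Figure D3:**
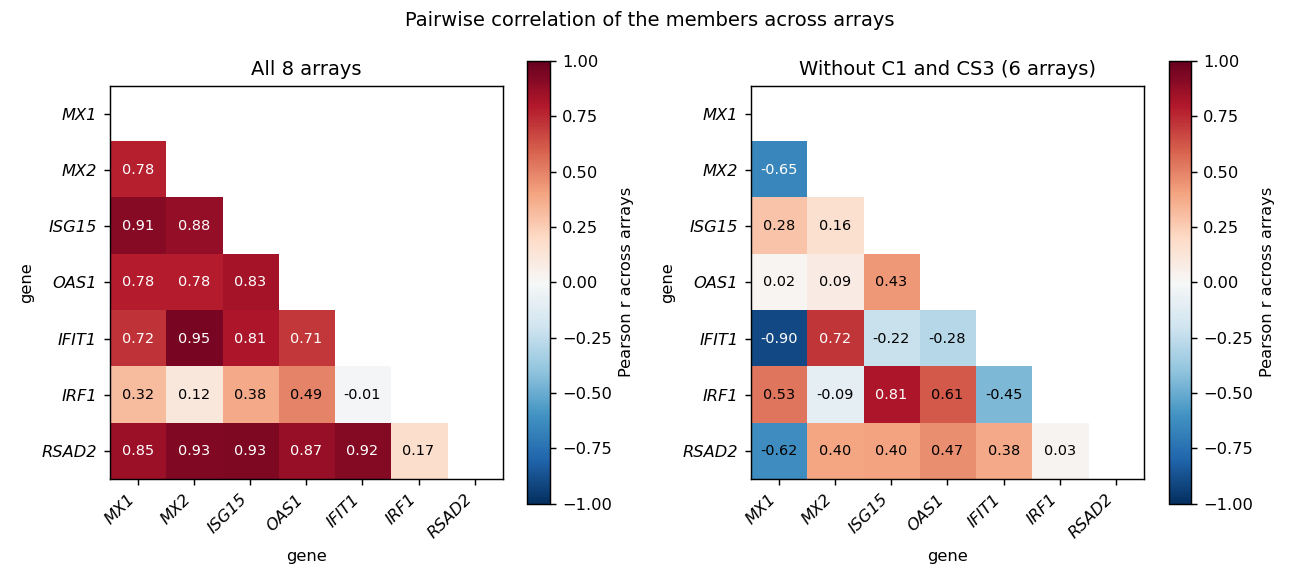
Pearson r between each pair of members (axes: genes) over all 8 arrays, left, and over the 6 arrays without control replicate 1 (C1) and corticosteroid replicate 3 (CS3), right, with colour and number giving r. The pairs without IRF1 run from 0.71 to 0.95 on the left and from -0.90 to 0.72 on the right.

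Where several probe sets read 1 gene, they were set against the leading one, in 3 pairs. The leading IFIT1 probe set and the second one had r = 0.90 (exact p = 0.00263, adjusted over the 3 pairs p = 0.00789) and rho = 0.79 (exact p = 0.0279, adjusted p = 0.0838). The leading one and the third, which was below the filter, had r = 0.57 (exact p = 0.143, adjusted p = 0.143) and rho = 0.48 (exact p = 0.243, adjusted p = 0.243). The MX2 probe sets had r = 0.76 (exact p = 0.0316, adjusted p = 0.0474) and rho = 0.48 (exact p = 0.243, adjusted p = 0.243).

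The row order of the deposited table bears on 5 of the 7 genes. The corticosteroid values were re-assigned to the probe IDs sorted as text with full stops ignored, which moves 39.1% of the probe sets. IFIT1 and IRF1 stay in place, so the high IFIT1 level on corticosteroid replicate 3 does not depend on that step. MX1, MX2, ISG15, OAS1 and RSAD2 move by 1 to 19 rows. As deposited, the corticosteroid values listed for MX1 were 11.12, 11.68, 11.47 and 12.32, all above every control, and those listed for ISG15 were 10.43, 10.25, 10.22 and 8.48, of which 3 were. With those values 4 members passed in limma, MX1 at 3.74 (adjusted p = 4.09e-05), MX2 at 5.57 (1.68e-08), ISG15 at 2.30 (0.00436) and RSAD2 at -1.65 (0.03), and 0 of the 21 pairs were related after adjustment (exact permutation). In that order 5454 probe sets passed. Among moved rows the 2 group means correlated across probe sets, which are not independent replicates, with r = 0.10 as deposited and 0.99 after re-ordering.

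Other genes of the interferon pathway were looked up in lists of ligands, receptors, sensors, regulators and targets. Of 147 listed symbols 76 were on the array by name and 62 were tested, of which 0 passed in limma (smallest adjusted p = 0.479). An unadjusted p under 0.05 was found for 1 gene in each direction, where 4.78% of all probe sets tested were called higher and 4.71% lower. The groups did not overlap for 2 of the 62 genes, IFNAR1 and B2M, a smaller share than the 5.56% of all probe sets.

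The interferon transcripts IFNA1, IFNB1 and IFNG had mean levels of 5.16, 3.34 and 3.77, and none of the 3 exceeded the filter. Of the 9 receptor and JAK-STAT genes tested 7 had lower means with corticosteroid, and 0 passed. Among the 5399 tested genes outside the members 2483 had lower means and 2916 higher. The counts for this list and the later ones are to be read beside these. IFNAR1, a chain of the type I interferon receptor, stood at 7.90, 9.15, 8.16 and 8.01 in controls and at 7.79, 7.72, 7.37 and 7.88 with corticosteroid. Every corticosteroid array lay below every control, by a small margin, and the difference was -0.62 (SE 0.28, limma adjusted p = 0.529). The other chain, IFNAR2, differed by -0.29 (SE 0.19, limma adjusted p = 0.614), and the kinase JAK2 by -0.31 (SE 0.20, limma adjusted p = 0.612). The highest array was control replicate 2 for these 3 genes.

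Among 8 sensors and adaptors tested, 5 had lower means, or 4 with each array centred on its median, and 0 passed. TLR4, the endotoxin receptor, differed by -0.54 (SE 0.41, limma adjusted p = 0.662), with 8.09 on control replicate 2 and between 5.88 and 6.48 on the others. Its adaptor MYD88 differed by -0.52 (SE 0.27, limma adjusted p = 0.559), and LY96, which forms the receptor with TLR4, by -0.66 (SE 0.64, limma adjusted p = 0.719). Of the 5 IRF factors tested 4 had higher means. IRF2, IRF3 and IRF8, those of smallest p, differed by 0.21 (SE 0.20), 0.16 (SE 0.17) and -0.42 (SE 0.27), with limma adjusted p-values of 0.715, 0.741 and 0.609. Of 6 genes listed as negative regulators and tested, 5 had lower means, but 2 did without control replicate 3. With each array centred on its median 4 did. NFKBIA, an inhibitor of NF-kB that glucocorticoids are known to induce, differed by -0.23 (SE 0.17, limma adjusted p = 0.65). USP18, which removes ISG15 from proteins, differed by 0.36 (SE 0.35, limma adjusted p = 0.713). ISG20L2 differed by -0.10 (SE 0.26, limma adjusted p = 0.912). It is counted in this list, though it encodes an exonuclease and is not an established regulator of interferon signalling. SOCS3, a feedback inhibitor of JAK signalling, had a mean of 4.67, below the filter, and a difference of -0.00 (SE 0.11) in the fit without it.

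The 17 other antiviral genes tested had lower means with corticosteroid in 15 cases, and 0 passed at an adjusted or unadjusted p under 0.05. Their median difference was -0.22, beside 0.03 over the 5399 tested genes outside the members. Without control replicate 1, on which these genes were highest on average (0.62), 8 of the 17 had lower means and the median was 0.03. Without corticosteroid replicate 3, 16 of the 17 had lower means and the median was -0.37. With both of these arrays left out, 12 of the 16 still tested had lower means, and the median was -0.19. With each array centred on its median the number with lower means was 13, and after quantile normalization 14. IFIT2, of the same family as IFIT1, differed by -0.40 (SE 0.27, limma adjusted p = 0.631), the RNA-processing enzyme PNPT1 by -0.64 (SE 0.49, limma adjusted p = 0.658) and SHISA5 by -0.25 (SE 0.18, limma adjusted p = 0.652). Of the 17 interferon-gamma-type genes tested 11 had lower means, and 9 without control replicate 2, on which their mean level was highest (0.90). B2M, the light chain of MHC class I, stood at 13.80, 13.93, 13.87 and 13.60 in controls and at 13.52, 13.42, 13.57 and 13.58 with corticosteroid. The groups did not overlap, and the difference was -0.28 (SE 0.09, limma adjusted p = 0.479). SERPING1, the inhibitor of complement C1, differed by 0.45 (SE 0.19, limma adjusted p = 0.512), and the immunoproteasome subunit PSMB8 by -0.65 (SE 0.35, limma adjusted p = 0.562).

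These lists followed the members across arrays to different extents. Pearson r of each gene with the mean member profile over the 8 arrays is given as a description, and 1.3% of the 5399 genes had r above 0.7. Of the 17 other antiviral genes 10 did, with a median r of 0.81. GBP1 (r = 0.81) and GBP2 (r = 0.84) are among these 10. Interferon-gamma also induces them, so the counts depend on the list in which a gene was placed. The numbers were 1 of 5 IRF factors, 2 of 8 sensors and adaptors, 1 of 6 negative regulators, 0 of 9 receptor and JAK-STAT genes and 0 of 17 interferon-gamma-type genes. For 8 of the 17 antiviral genes control replicate 1 and corticosteroid replicate 3 were the 2 highest arrays. The 2 sensors above 0.7 were DDX58 and ZBP1, with most levels on the other arrays below the filter. With control replicate 1 and corticosteroid replicate 3 both left out, 6 sensors and adaptors and 16 antiviral genes were still tested. The genes counted thus depended in part on the same 2 arrays. Differences between the lists were not tested.

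**Figure D4:**
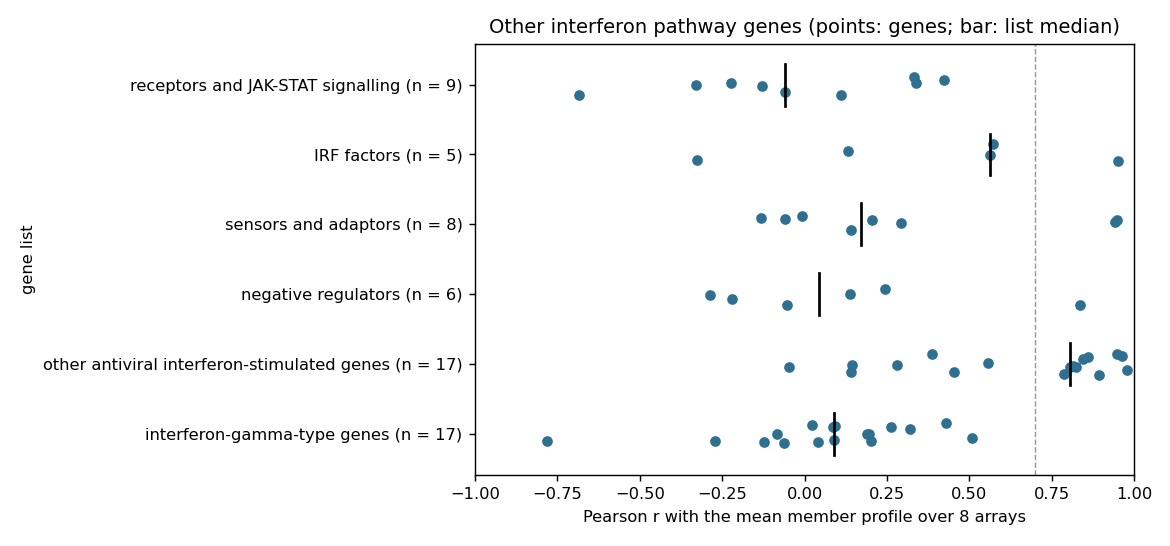
Pearson r over the 8 arrays (x axis) between each other pathway gene (points) and the mean member profile, by gene list (y axis), with the list median as a bar and 0.7 dashed. Of the 17 genes listed as antiviral, GBP1 and GBP2 included, 10 lie right of 0.7, against 0 of the 17 listed as interferon-gamma-type.

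The 10 genes with the pattern most like that of the members had r from 0.92 to 0.98 over the 8 arrays. They were chosen for that likeness, and their r carries no test. XAF1, an interferon-induced factor that promotes apoptosis, came first (r = 0.98), with 6.79 on control replicate 1, 6.84 on corticosteroid replicate 3 and between 5.21 and 5.47 elsewhere. IFI44L (r = 0.96) and PLAC8 (r = 0.95) followed the same arrays, PLAC8 with 7.38 and 7.48 against 5.06 to 6.32. IRF9 (r = 0.95), a DNA-binding factor of the type I interferon response, stood at 6.32 and 6.50 against 5.50 to 5.82. DDX58 (r = 0.95), which encodes the RNA sensor RIG-I, stood at 6.06 and 6.48 against 5.00 to 5.30. ISG12(A) (r = 0.94), a small interferon-inducible gene, and ZBP1 (r = 0.94), a nucleic acid sensor, also belonged to the 10. Outside the high arrays ZBP1 stood between 4.88 and 5.36, and most levels of DDX58 and ZBP1 there were below the filter. That these genes were tested at all thus leaned on the arrays that define the pattern.

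The remaining 3 were ARID4B (r = 0.95), ZDHHC1 (r = 0.93) and SGSH (r = 0.92). They spanned 0.31, 0.29 and 0.42 log2 units over the arrays, where the other 7 spanned 1.01 to 2.42. In all, 6 of the 10 were in the pathway lists, which hold 1.15% of the genes compared. For these 10 genes the differences between groups lay between -0.34 and 0.18, and limma adjusted p-values were 0.86 or more. Without the 2 high arrays their r with the profile ranged from 0.02 to 0.74.

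On average, markers of leukocytes and macrophages were highest on another array than the members. The 5 muscle fibre markers on the array (CKM, DES, TTN, MYH7 and TNNC2) had mean levels from 11.68 to 13.98, so the labelled muscle carries its defining transcripts. In this whole tissue, fewer cells of a type and less RNA per cell cannot be told apart. All 5 leukocyte markers listed were on the array and 4 exceeded the filter, PTPRC (mean 5.02) being the exception. Their mean level, each gene centred on its own mean, was 2.31 on control replicate 2 and between -0.64 and 0.10 on the other 7 arrays, with 0.02 on control replicate 1 and -0.52 on corticosteroid replicate 3. For 6 macrophage markers it was 1.81 on control replicate 2, 0.12 on control replicate 1 and -0.18 on corticosteroid replicate 3. Single markers departed from these means, CORO1A being highest on control replicate 1 (8.11, against 8.09 on control replicate 2). C1QA and C1QC, subunits of complement C1, stood at 7.75 and 9.27 on control replicate 1, close to 7.85 and 9.45 on control replicate 2. Their r with the member profile was 0.52 and 0.46. The macrophage mean ran from -0.48 to 1.81 over controls and from -0.83 to -0.09 over corticosteroid arrays. The 3 neutrophil markers and the 1 B cell marker were below the filter, as were 4 of the 5 T and NK cell markers. Low levels limit what these lists can show. The T and NK cell mean was 0.173 on control replicate 1, its highest, 0.168 on control replicate 3 and -0.04 on corticosteroid replicate 3. CD3D, CD2 and CD8A were highest on control replicate 1, and CD3E and CD3G on control replicate 3. Of these, CD2 alone was second highest on corticosteroid replicate 3 (5.37, after 5.46). Of the dendritic markers the array holds IRF8 alone, which is also one of the IRF factors above.

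The list means of endothelial, fibroblast, adipocyte and red cell markers were below 0 on the 2 arrays where the members were high, though single markers were not. KDR, TIE1, COL3A1 and HBB stood above their own means on control replicate 1, and DCN on corticosteroid replicate 3. The mean of the 5 endothelial markers was lowest on control replicate 1 (-0.14) and corticosteroid replicate 3 (-0.23), and that of 3 fibroblast markers was -0.26 and -0.28 there. ADIPOQ and FABP4, the adipocyte markers, had means of -1.53 and -0.96 on these 2 arrays, of -1.59 on corticosteroid replicate 4 and between 0.44 and 1.71 on the others. The mean of the red cell markers HBB and ALAS2 was -0.15 and -0.40 there, with a range from -0.70 to 1.42. The part of these cells in the members' pattern, and of leukocytes and macrophages in the pathway genes, was not tested. For IFNAR1, IFNAR2, JAK2, TLR4, MYD88, LY96, B2M and PSMB8 control replicate 2 was the highest array, as it was for the means of the leukocyte and macrophage markers. Over the probe sets tested, the median correlation of an array with the others was 0.89 for control replicate 2 and up to 0.95 elsewhere, with 0.95 for control replicate 1 and corticosteroid replicate 3.

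**Figure D5:**
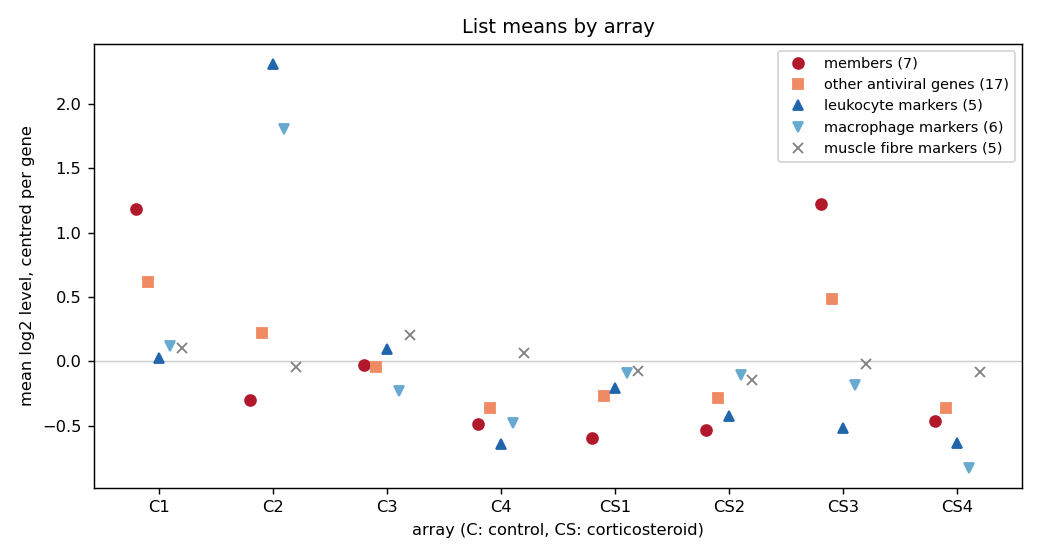
Mean log2 level of 5 gene lists, each gene centred on its mean (y axis), on each array (x axis, C control and CS corticosteroid). The members are high on C1 (1.18) and CS3 (1.23), the leukocyte and macrophage markers on C2 (2.31 and 1.81).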

How the data were processed

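The authors deposited 1 log2 value per probe set and array, and array medians ran from 5.86 to 5.97. MAS5 is named in the submitters' processing notes, and no source used here gives the scaling between arrays. Corticosteroid columns were re-ordered as described and control columns kept. Groups, from the titles, were tested by lmFit and eBayes with trend (limma 3.58.1, R 4.3.3) on 14361 probe sets whose mean exceeded the 40th percentile (5.27), with Benjamini-Hochberg adjustment at 0.05. The 64 reporter probe sets were left out. Pairs were tested over all 40320 pairings of the arrays in Python 3.11.15 (numpy 2.4.6, pandas 2.3.3), and single genes over the 70 splits, where the smallest possible p is 0.0286. Both were tested on simulated data. All 10 member probe sets kept their symbol in the Sscrofa11.1 gene table. The members and lists were chosen with earlier results of these data known. Named besides the members were the 3 genes of smallest p per list, IFNAR1, IFNAR2, TLR4 and SOCS3, and the 10 most similar genes; marker and interferon lists were fixed whole, any other name was chosen after its values were seen; 1 further gene of the rule is not reported here. Alternatives were the row order, scaling, filter, offset, eBayes setting, array weights, probe set average, replicate block and each array left out. No coordinates are given, since no source used here names a build for the array's annotation.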

Additional observations from a re-analysis of the deposited data

Results flagged for a closer look

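In groups of 4 arrays, 1 array can lie far from the other 3. This was so in 12 of 88 groups looked at (13.6%). Chance gives about 1 in 20 for unselected groups, but the genes share arrays, and 6 of the 12 come from genes chosen for likeness to the member profile and 1 from that profile itself, so the share has no chance rate to be read against. Corticosteroid replicate 3 lay far above its group for MX1 (9.44, next 7.47), OAS1 (8.67, next 6.22), IFIT1 (8.78, next 7.53, just past the limit), IRF9 (6.50, next 5.62), PLAC8 (7.48, next 5.24), DDX58 (6.48, next 5.30), ARID4B (6.69, next 6.43) and the mean member profile (1.23, next -0.46). XAF1 was set apart in both groups, at 6.79 on control replicate 1 (next 5.47) and 6.84 on corticosteroid replicate 3 (next 5.45). IRF1 had its low value on corticosteroid replicate 2 (6.22, next 6.47). The macrophage marker mean was low on corticosteroid replicate 4 (-0.83, next -0.18).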

How the results depend on the processing

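With the rows as deposited, 5454 probe sets, 4 members and 21 other pathway genes passed, 0 member pairs passed (median r 0.23), and the marker difference was -5.53 for muscle fibres and -0.89 for endothelium. Under the other settings 0 members and 0 pathway genes passed. Without 1 array at a time, 0 to 1 probe sets passed (1 without control replicate 3), 0 to 11 member pairs, and the median r was 0.69 to 0.90. Group-centred values gave 6 pairs (median 0.89), Spearman rho 1 pair (0.60), and leaving out control array 1 and corticosteroid array 3, chosen after seeing the data, 0 pairs (0.16). Array weights turned ISG15 to -0.047, averaging probe sets turned IFIT1 to -0.13, and without those 2 arrays MX1 was -0.083 and ISG15 -0.21. Without 1 array at a time the difference ran from -0.50 to 0.43 for MX1, -0.15 to 0.28 for MX2, -0.59 to 0.38 for ISG15, -0.13 to 0.64 for IFIT1 and -0.84 to 0.48 for RSAD2. The cause was not tested. A block for the replicate number changed no call, 0 probe sets passing. Values centred on group and replicate number gave the pairs a median r of 0.89. Same-numbered arrays then mirror each other, so this r is no further support. Deviations of same-numbered arrays correlated at -0.25, 0.11, 0.10 and 0.05, so the numbers were not taken to pair the samples. Signal over background is unknown, and the number of arrays limits precision.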
